A study of Mus musculus with 6 samples.

Results

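The genes described here code for the potassium, calcium and sodium channels of islet cells, together with their accessory subunits. They were taken by name from the array design: every gene whose name begins with Kcn, Cacn, Scn and a digit or Hcn and a digit, and in addition Abcc8, Abcc9 and Trpm5. The array carries 132 such genes on 214 probes. The scanner software called at least 1 probe well above background on 3 or more of the 6 arrays for 82 of them, on 109 probes, and these 82 genes were compared among 16418 genes tested in all. The rule used gene names and detection, not a measured difference, but it was set with earlier results of these data known. The other 50 were not compared: 36 were well above background on 0 arrays and 14 on 1 or 2 at most. They include the calcium channel pore Cacna1e, the sodium channel pore Scn9a and the potassium channel pores Kcnj5 and Kcna3. Cacna1c was not analysed here.

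A beta cell couples glucose to insulin release through its membrane potential. Metabolism of glucose raises ATP, which closes ATP-sensitive potassium channels (KATP channels, made of a Kir6 pore such as Kcnj11 and a sulphonylurea receptor such as Abcc8), the membrane depolarises, voltage-gated calcium channels open and calcium triggers exocytosis. Voltage-gated and calcium-activated potassium channels then repolarise the cell, and two-pore-domain channels carry a background potassium current. Islets also hold other endocrine cells, vessels, pericytes, nerve endings and immune cells, and isolated islets carry some acinar and duct tissue, each with channels of its own.

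Islets came from male mice of 2 obese strains, with 3 arrays per strain. NZO/HiBomDife mice, a polygenic obese strain labelled diabetes-prone, gave the arrays NZO 10, 11 and 12. C57BL/6.V-Lepob/ob mice, which lack leptin and are labelled diabetes-resistant, gave B6-ob/ob 4, 5 and 6. All mice ate a high-fat diet without carbohydrate to an age of 18 weeks and then a diet with carbohydrate, and islets were taken 48 h (2 d) after the switch. No array of either strain before the switch or on another diet was analysed here, so that the comparison is one between strains at 1 time. The labels do not say whether an array holds 1 mouse or a pool, and p-values therefore measure only the spread between these samples. The 6 arrays lie on 3 slides: NZO 10 with B6-ob/ob 4, NZO 11 with B6-ob/ob 5 and 6, and NZO 12 alone.

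Levels are the log2 of the processed intensity relative to the 75th percentile of the same array, and a difference is the NZO mean minus the B6-ob/ob mean on that scale, so that 1 stands for a doubling. Levels of different genes come from different probes and are not compared. "Rose" and "fell" stand for a limma adjusted p under 0.05 over all 16418 genes, relative to B6-ob/ob. The direction follows the labels of the scanner files. In the deposited table of processed values each of the 6 columns follows most closely an array of the other strain (r from 0.944 to 0.971), so that the opposite direction would be read from that table.

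Between 23621 and 24711 probes were well above background on an array, and no probe was saturated. The islet identity was measured: insulin (Ins1 and Ins2), glucagon and somatostatin were well above background on all 6 arrays, and of 9 beta cell markers 1 (Nkx6-1) fell and 0 rose. Several lists of markers of cells outside the endocrine islet held more genes that rose than the 13.2% of all genes tested. Of 15 acinar markers 15 rose, with a mean level of 5.08, 5.296 and 5.69 in NZO 10, 11 and 12 and of 3.69, 2.84 and 2.10 in B6-ob/ob 4, 5 and 6. Of 16 stellate, pericyte and fibroblast markers 15 rose, of 14 duct markers 7 and of 12 endothelial markers 4. Of 11 myeloid markers 6 rose, of 6 lymphocyte markers 6 and of 9 neural and Schwann cell markers 3. The others of each list did not pass the test. The lymphocyte list had 12 genes on the array, of which 6 were kept. Its mean level was between -3.32 and -3.05 in NZO and between -5.51 and -4.87 in B6-ob/ob. Some markers, among them Cftr, Muc1 and Pdgfra, were kept only through the NZO arrays, so that these shares depend in part on the filter. B6-ob/ob 6 stood apart from its group in dividing cell markers, with a mean level of -2.24 against 1.75 and 1.08 in B6-ob/ob 4 and 5 and between -1.28 and -1.08 in NZO. In islets measured whole, fewer cells of a type and less RNA per cell cannot be told apart.

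The channel genes differed between the strains in both directions. Of the 82 genes 28 passed the test, or 34.1%, where 22.2% of all genes tested did. In NZO 16 rose (13.2% of all genes did) and 12 fell (9% of all genes did). The values of the 3 NZO arrays did not overlap those of the 3 B6-ob/ob arrays for 48 channel genes, or 58.5%, where 41.1% of all genes showed such a separation. The median size of the difference, without its sign, was 0.489 for the channel genes and 0.293 for all genes. The median signed difference was -0.113 and -0.03. All 28 called genes had the same sign within both slides that hold both strains, as had all 3643 called genes of the array. With the slide as a fixed block 20 channel genes passed, 18 of them among the 28. The balance of directions depended on background and scaling. With a model-based background (normexp) 12 rose and 4 fell, and with the slide as a block 15 and 5. With scaling to the median of each array 14 rose and 14 fell. The share that rose among all called genes moved as well. It was 59.4% in the main fit, 65.3% with normexp, 65% with the slide block and 52.5% with the median. Of the 16 that rose 2 were kept only through the NZO arrays, and among genes well above background on all 6 arrays 13 rose and 9 fell. Without B6-ob/ob 5 the test called 12 channel genes, without NZO 10 it called 16 and without NZO 11 it called 17, against 28 with all arrays. The shares of all genes called in these other fits are not given here.

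**Figure D1:**
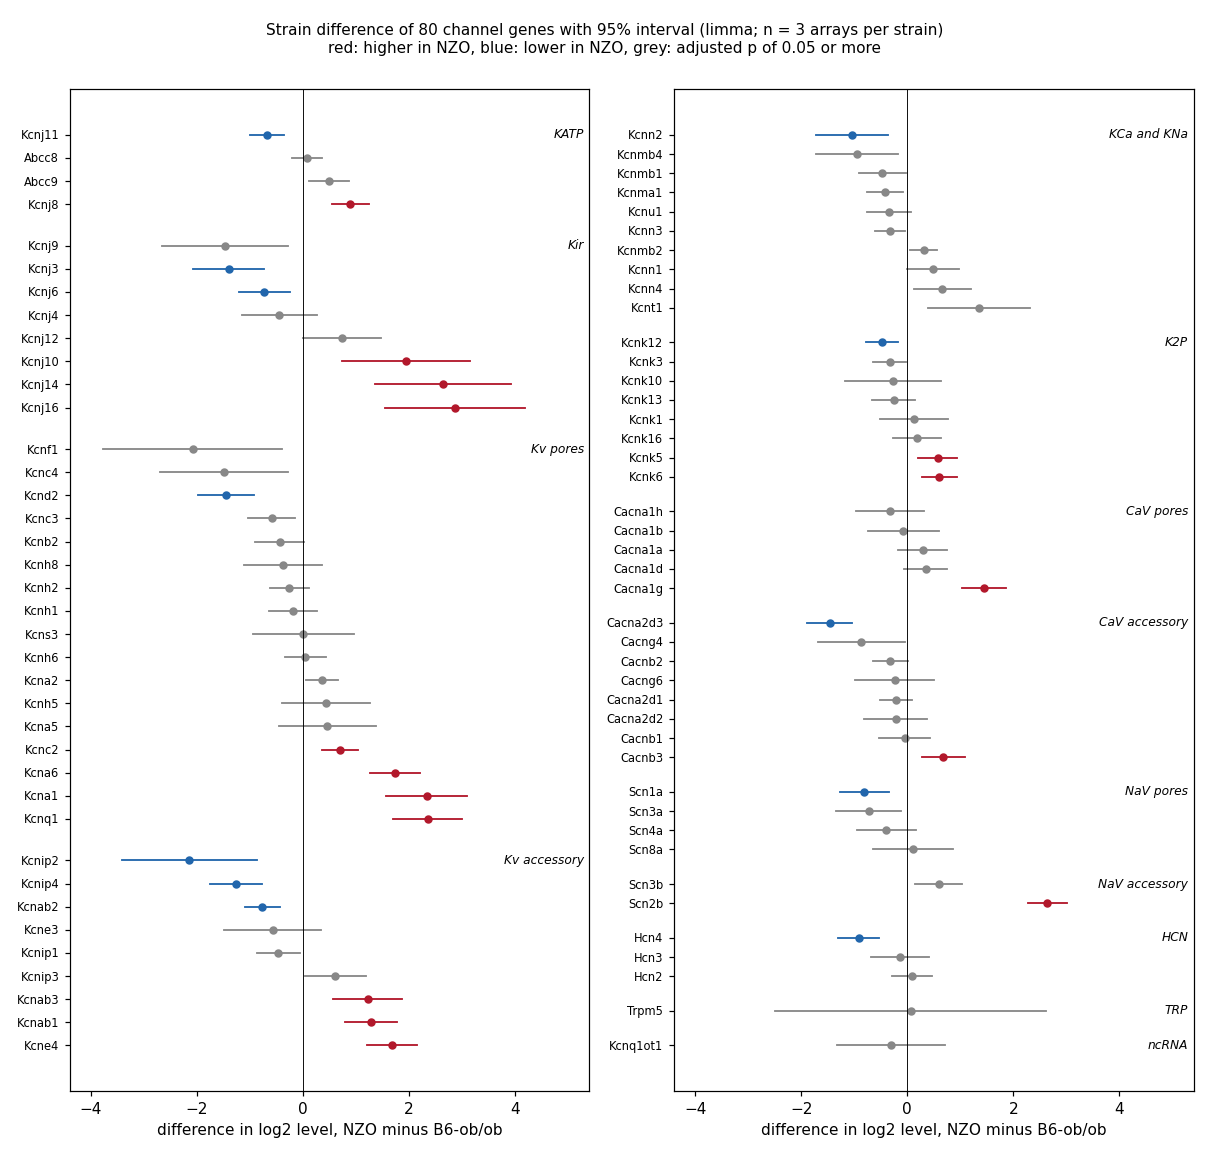
Difference in log2 level (NZO minus B6-ob/ob) of 80 of the 82 channel genes, grouped by the kind of subunit, with its 95% interval from limma (3 arrays per strain). Red genes (16) rose, blue genes (12) fell and grey genes (52) did not pass the test, and nearly every family holds differences on both sides of 0.

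Of the 4 genes of the KATP channel family 1 fell, 1 rose and 2 did not pass the test (50% called, against 22.2% of all genes). Kcnj11, the pore of the beta cell KATP channel, had levels of 0.26, 0.27 and 0.39 in NZO and of 0.83, 0.96 and 1.18 in B6-ob/ob. All NZO values lay below all B6-ob/ob values. The difference was -0.68 (SE 0.13, 95% interval -0.999 to -0.365, adjusted p = 0.0141), which makes Kcnj11 1.60-fold lower in NZO. The call was lost with the slide as a fixed block (-0.70), and without NZO 10 (-0.66), NZO 11 (-0.66) or B6-ob/ob 5 (-0.70), and the adjusted p ran from 0.000438 to 0.0604 over the 17 alternatives. Within the slides that hold both strains the difference was -0.57 and -0.80. Kcnj8, the Kir6 pore of vascular KATP channels, went the other way. Its levels were -0.29, -0.62 and -0.39 in NZO and -1.44, -1.14 and -1.38 in B6-ob/ob, again without overlap, and it rose by 0.89 (SE 0.14, adjusted p = 0.0077). With the slide as a fixed block the difference was 0.86 and did not pass the test, with an adjusted p between 0.00149 and 0.0584 over the alternatives. The second kept probe of Kcnj8 was well above background on 3 NZO arrays and 0 B6-ob/ob arrays and did not pass the test.

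Abcc9, the sulphonylurea receptor that pairs with Kcnj8 in vascular smooth muscle and pericytes, had levels of -2.47, -2.43 and -2.67 in NZO and of -2.78, -3.04 and -3.23 in B6-ob/ob. The strains did not overlap, and the difference of 0.49 (SE 0.15) did not pass the test (adjusted p = 0.0702). Its 2 probes gave the same difference, 0.49 each. Beside Kcnj8 and Abcc9 stand the stellate, pericyte and fibroblast markers, of which 15 of 16 rose. Among them the pericyte markers Pdgfrb, Rgs5 and Cspg4 differed by 1.26, 1.15 and 0.81, and the smooth muscle actin Acta2 by -0.06 (SE 0.11). The summed level of that marker list lay between 6.33 and 6.49 in NZO and between 4.36 and 5.11 in B6-ob/ob, and Pdgfra was the only one of its markers with 0 arrays of a strain, B6-ob/ob, well above background. Its part in the difference of Kcnj8 was not tested.

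Abcc8, the sulphonylurea receptor SUR1 of the beta cell, was read by 2 probes that gave different answers. They are printed because the reading of the gene turns on them. The files place both on chromosome 7 of the mm9 build, on the minus strand, at chr7:53359893-53359901 and chr7:53359893-53359916, spans that are shorter than the 60 bases of a probe.

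Abcc8 brighter probe: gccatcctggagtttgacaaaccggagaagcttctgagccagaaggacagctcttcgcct
Abcc8 dimmer probe: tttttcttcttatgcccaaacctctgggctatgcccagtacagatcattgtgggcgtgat

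The brighter probe had levels of 7.77, 7.87 and 7.60 in NZO and of 7.63, 7.72 and 7.69 in B6-ob/ob. The strains overlapped and the difference was 0.07 (SE 0.12, 95% interval -0.22 to 0.35, adjusted p = 0.737). The dimmer probe had levels of -1.80, -1.71 and -1.76 in NZO and of -0.97, -0.83 and -0.75 in B6-ob/ob, and with every probe tested apart it was lower in NZO by a difference of -0.90 (SE 0.11, adjusted p = 0.0032), where 21.8% of all kept probes passed. Averaging both probes gave a called difference of -0.42 for Abcc8. Which transcripts each probe detects was not analysed here. On the array Abcc8 and Kcnj11 are neighbours, with probes 6.8 kb apart, and so are Abcc9 and Kcnj8, at 24.2 kb on chromosome 6.

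Inward rectifiers are channels that pass potassium more easily into the cell than out of it. Of the 8 others kept, 3 rose and 2 fell (62.5%, against 22.2% of all genes). Among those that rose, Kcnj14 and Kcnj16 passed the filter only through the NZO arrays, so that this share depends in part on the filter. Both that fell, Kcnj3 and Kcnj6, are G-protein-gated pores, which open when a hormone or transmitter receptor releases the beta-gamma subunits of its G protein. Kcnj3 had levels of -5.70, -6.07 and -5.08 in NZO, where 1 of 3 arrays was well above background, and of -4.49, -4.01 and -4.13 in B6-ob/ob. It fell by 1.40 (SE 0.28, adjusted p = 0.0155). Kcnj6 fell by 0.73 (SE 0.20, adjusted p = 0.0438), from -3.63, -4.12 and -3.998 in B6-ob/ob to -4.38, -4.63 and -4.92 in NZO. The call of Kcnj6 was lost with the slide as a fixed block (-0.65), with no filter on dim probes, with a trended and robust prior variance and without any one of the arrays (differences from -0.86 to -0.59), and that of Kcnj3 without NZO 10 or B6-ob/ob 5 (-1.36 and -1.30). Under the normexp background the differences shrank to -0.14 for Kcnj3 and -0.04 for Kcnj6, both with no call. Kcnj5, another pore of this kind, was not kept. A probe that the files name Kcnj9 had a difference of -1.47 (SE 0.49, adjusted p = 0.0825) and did not pass the test. Per the file's description it was designed on an unclassifiable cDNA, so that its name is uncertain.

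The inward rectifiers Kcnj10, Kcnj14 and Kcnj16 rose, of which Kcnj14 and Kcnj16 were kept only through the NZO arrays, where they are high. Kcnj10 and Kcnj16 code for Kir4.1 and Kir5.1, which join into 1 channel in glia and in transporting epithelia, and Kcnj14 codes for Kir2.4. Kcnj16 had levels of -5.03, -5.07 and -3.53 in NZO and of -6.54, -7.77 and -7.92 in B6-ob/ob, where 0 of 3 arrays were well above background. The test gave a difference of 2.87 (SE 0.54, adjusted p = 0.0137), of which the dim side allows only the statement that Kcnj16 was at least 1.88-fold higher in NZO. That bound sets the NZO mean against the higher, on each B6-ob/ob array, of the lowest signal well above background and the signal of the probe itself. Kcnj14 behaved alike, with levels of -4.68, -4.71 and -4.06 in NZO and of -5.90, -7.62 and -7.84 in B6-ob/ob, a difference of 2.64 (SE 0.53, adjusted p = 0.0166) and a bound of at least 1.96-fold higher.

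Kcnj10 was well above background on 3 NZO arrays and 2 B6-ob/ob arrays. Its levels were -2.89, -3.30 and -3.29 in NZO and -6.29, -4.54 and -4.48 in B6-ob/ob, and it rose by 1.94 (SE 0.50, adjusted p = 0.0375). Without B6-ob/ob 4, the lowest array, the difference was 1.35. Each of these 3 calls depended on single arrays: that of Kcnj16 was lost without B6-ob/ob 5 (2.69), that of Kcnj14 without NZO 11, NZO 12 or B6-ob/ob 5 (2.38 to 2.75), and that of Kcnj10 without any one of the NZO arrays or B6-ob/ob 5 (1.81 to 2.22). The call of Kcnj10 was also lost with the slide as a fixed block (2.15), with quantile normalisation and with no filter on dim probes. Under normexp the differences of Kcnj16 and Kcnj14 were 0.53 and 0.50, with no call. Of the remaining inward rectifiers Kcnj4 and Kcnj12 had differences of -0.44 and 0.73 and did not pass the test, and 4 others were not kept.

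**Figure D2:**
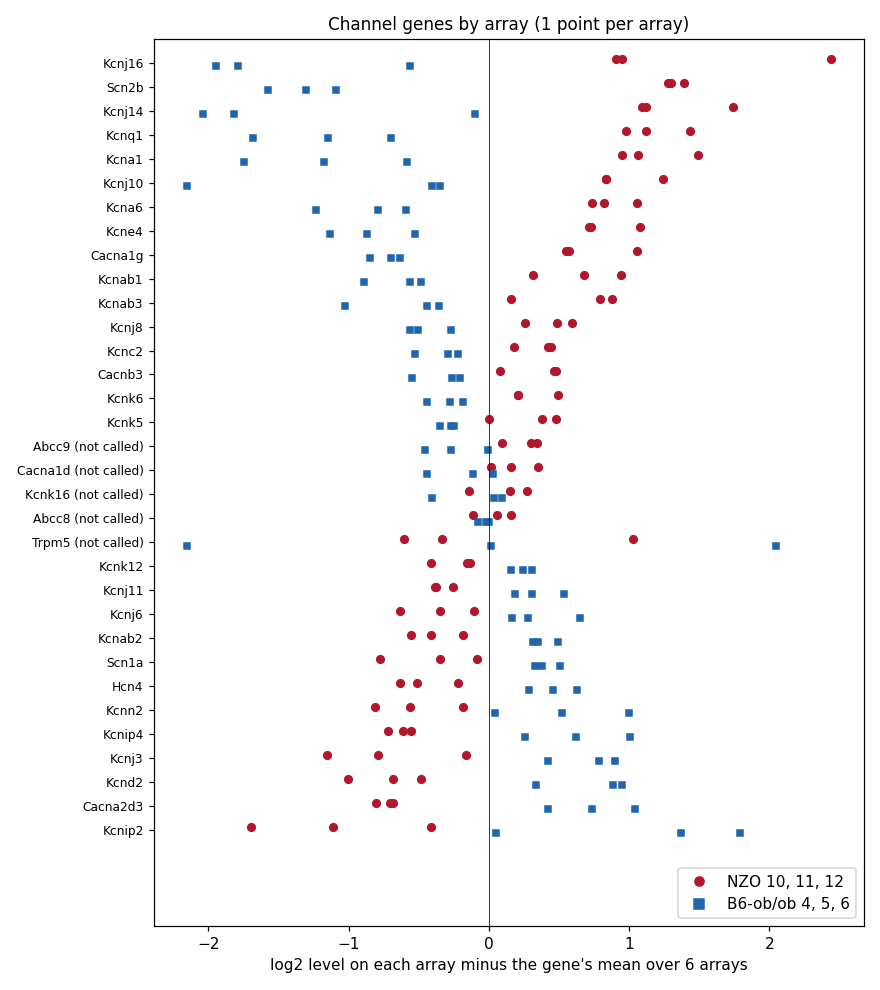
Level of each called channel gene, and of 5 uncalled ones named by rule, on every array, drawn as the log2 level minus the mean of that gene over the 6 arrays (red circles NZO, blue squares B6-ob/ob). The strains do not overlap for any of the 28 called genes, and the 3 B6-ob/ob arrays of Trpm5 span more than the strain difference of any gene shown.

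Of 18 voltage-gated potassium channel pores kept, 4 rose and 1 fell, or 27.8%, near the 22.2% of all genes. Kcnq1, the pore of the slow delayed rectifier of heart and of epithelia, had levels of 1.19, 1.498 and 1.04 in NZO and of -0.63, -1.08 and -1.62 in B6-ob/ob. The strains were separated by more than the range of either. Kcnq1 rose by 2.35 (SE 0.27, 95% interval 1.70 to 3.01, adjusted p = 0.0024), or 5.11-fold, and passed the test in all 17 alternatives, with differences from 2.03 to 2.59. Within the slides that hold both strains the difference was 1.82 and 2.85. Kcne4, a small membrane protein that joins Kcnq1 and other pores and lowers their current, rose as well, by 1.68 (SE 0.19, adjusted p = 0.0024), and by 0.74 to 2.01 over the alternatives, all called. Its levels were -2.26, -2.60 and -2.62 in NZO and -3.86, -4.46 and -4.20 in B6-ob/ob. Kcnq1ot1, the non-coding RNA transcribed from within the Kcnq1 locus, had a difference of -0.31 (SE 0.42, adjusted p = 0.662).

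Kcnq1 was highest in B6-ob/ob 4 and lowest in B6-ob/ob 6. The acinar, duct, stellate, endothelial and dividing cell marker means also took that order in that strain. So did 33.6% of all genes and 41% of all genes that rose. Among the 3 NZO arrays the order of Kcnq1 was that of the duct list (1.79, 2.20 and 1.62 for NZO 10, 11 and 12), not of the acinar list. The myeloid list (0.24, 0.30 and -0.41) and the lymphocyte list (-3.21, -3.05 and -3.32) had that order too. The share of all genes with that order in NZO was not counted. Of 14 duct markers 7 rose, among them Krt19 and Sox9, and 2 (Cftr and Muc1) were well above background on 0 B6-ob/ob arrays. The summed level of the duct list lay between 9.08 and 9.57 in NZO and between 8.56 and 9.52 in B6-ob/ob, and that of the acinar list between 10.7 and 11.2 and between 7.78 and 9.58. All 15 acinar markers kept were well above background on at least 1 array of each strain. The part of these cells in the difference of Kcnq1 was not tested.

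The shaker-type pores Kcna1 and Kcna6, which set firing threshold in neurons, rose together. Kcna1 had levels of -1.50, -1.62 and -1.07 in NZO and of -3.15, -3.74 and -4.31 in B6-ob/ob, a difference of 2.33 (SE 0.31, adjusted p = 0.0041). Kcna6 had levels of -1.42, -1.51 and -1.19 in NZO and of -2.84, -3.04 and -3.48 in B6-ob/ob, a difference of 1.74 (SE 0.19, adjusted p = 0.0022). Both passed in every alternative, with differences from 1.29 to 2.62 for Kcna1 and from 1.06 to 1.88 for Kcna6, and their probes lie 66.7 kb apart on chromosome 6. Kcna5, of the same cluster, lies 109.2 kb from Kcna1 and did not pass the test (0.46, SE 0.38). Kcna2 did not pass either (0.36, SE 0.12, adjusted p = 0.0889).

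The beta subunits that bind shaker-type pores inside the cell were divided. Kcnab1 rose by 1.29 (SE 0.20, adjusted p = 0.0069; 0.76 to 1.62 over the alternatives, all called), from -2.90, -3.31 and -2.98 in B6-ob/ob to -1.48, -1.74 and -2.11 in NZO. Kcnab3 rose by 1.22 (SE 0.27, adjusted p = 0.0227), from -0.79, -0.11 and -0.21 to 1.12, 1.03 and 0.39. Kcnab2 fell by 0.77 (SE 0.14, adjusted p = 0.0107), from -2.75, -2.58 and -2.71 to -3.48, -3.25 and -3.62. No strain overlapped the other for any of the 3. The calls of Kcnab3 (without NZO 10, NZO 11 or B6-ob/ob 5, at differences from 1.08 to 1.34) and of Kcnab2 (without B6-ob/ob 5, at -0.71) depended on single arrays. That of Kcnab2 was lost with the slide as a fixed block as well (-0.66), and under normexp its difference was -0.28 with no call. Kcnc2, a fast Kv3 pore, rose by 0.70 (SE 0.14, adjusted p = 0.0163), which 2 further probes of it did not reach. Its call was lost under normexp and without NZO 11, NZO 12 or B6-ob/ob 5 (0.65 to 0.72).

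Neural and Schwann cell markers stand beside the shaker-type genes. Of 9 kept 3 rose, Sox10 by 1.42, Ngfr by 1.70 and Erbb3 by 1.55, while Mbp and S100b did not pass the test, and Gfap and Cdh19 were not kept. The summed level of the list lay between 4.96 and 5.09 in NZO and between 4.85 and 5.02 in B6-ob/ob, and its part in these differences was not tested.

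Of the subunits of the Kv4 complex, which carries the fast A-type potassium current, Kcnd2, Kcnip2, Kcnip4 and Dpp10 fell, and Kcnip1, Kcnip3 and Dpp6 did not pass the test on their brightest probe. These genes were set together after their values were seen. Kcnd2 is the pore, Kcnip2 and Kcnip4 are calcium-binding subunits (KChIPs) that set its surface level and gating, and Dpp10 is a membrane subunit from the list of channel regulators. Kcnd2 had levels of -5.55, -5.23 and -5.03 in NZO, with 1 of 3 arrays well above background, and of -4.21, -3.59 and -3.66 in B6-ob/ob. It fell by 1.45 (SE 0.22, adjusted p = 0.0062), without overlap. Kcnip2 had levels of -4.54, -5.13 and -3.84 in NZO and of -3.38, -2.06 and -1.64 in B6-ob/ob, and fell by 2.14 (SE 0.52, adjusted p = 0.0324). Kcnip4 had levels of -1.36, -1.20 and -1.26 in NZO and of -0.02, 0.37 and -0.39 in B6-ob/ob, and fell by 1.26 (SE 0.20, adjusted p = 0.0076).

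Both probes of Kcnip4 passed, the second at -1.11, and Kcnip4 was the only one of 23 channel genes with several kept probes for which all probes passed. Dpp10 fell by 1.28 (SE 0.30, adjusted p = 0.0284), from -2.03, -1.39 and -1.07 in B6-ob/ob to -3.18, -2.72 and -2.43 in NZO. The related Dpp6 had a difference of -0.11 (SE 0.24) and Kcnip1 of -0.46 (SE 0.17, adjusted p = 0.103), neither called. The remaining subunit Kcnip3 had a difference of 0.61 on its brighter probe, with no call, and of 1.05 (SE 0.24, adjusted p = 0.0267) on its dimmer one. The other Kv4 pores, Kcnd1 and Kcnd3, were not kept. Kcnip2 lost its call without NZO 10, NZO 11, B6-ob/ob 5 or B6-ob/ob 6 (-2.12 to -1.78). It also lost it with the slide as a fixed block (-2.37) and with no filter on dim probes. Kcnip4 lost its call with the slide as a fixed block (-1.25). Under normexp the difference of Kcnd2 was -0.21 and that of Kcnip2 -0.75, neither called.

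The promoters of Kcnd2, Kcnip2 and Kcnip4 are printed because these channel genes of the Kv4 complex fell, and that of Kcnj8 as a channel gene that rose. That of Dpp10, from the list of channel regulators, is not printed. Each is the 250 bases before a transcription start in RefSeq, build GRCm38.p6, read along the gene's strand. Capitals mark GC boxes (GGGCGG, or CCGCCC on the other strand), CCAAT boxes (CCAAT, also as ATTGG) and the cyclic AMP response motif (TGACG, also as CGTCA), and none of these motifs contains another.

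Kcnd2, chr6:21215096-21215345, plus strand: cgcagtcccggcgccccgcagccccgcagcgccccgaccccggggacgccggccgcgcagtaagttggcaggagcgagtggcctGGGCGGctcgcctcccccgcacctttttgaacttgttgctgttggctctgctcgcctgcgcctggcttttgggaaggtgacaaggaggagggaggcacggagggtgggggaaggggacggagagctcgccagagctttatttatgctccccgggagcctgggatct
Kcnip2, chr19:45816064-45816313, minus strand: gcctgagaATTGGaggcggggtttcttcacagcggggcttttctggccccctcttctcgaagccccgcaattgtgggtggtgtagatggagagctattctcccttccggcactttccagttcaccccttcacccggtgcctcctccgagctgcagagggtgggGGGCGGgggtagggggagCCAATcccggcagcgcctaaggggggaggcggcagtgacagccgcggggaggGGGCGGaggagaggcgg
Kcnip4, chr5:49285660-49285909, minus strand, 1 of its 2 windows that RefSeq gives here: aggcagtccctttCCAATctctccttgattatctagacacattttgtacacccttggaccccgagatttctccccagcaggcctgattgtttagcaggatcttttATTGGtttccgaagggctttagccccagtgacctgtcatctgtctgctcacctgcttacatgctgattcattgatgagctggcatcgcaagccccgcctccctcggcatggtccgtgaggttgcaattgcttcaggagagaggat
Kcnj8, chr6:142571615-142571864, minus strand: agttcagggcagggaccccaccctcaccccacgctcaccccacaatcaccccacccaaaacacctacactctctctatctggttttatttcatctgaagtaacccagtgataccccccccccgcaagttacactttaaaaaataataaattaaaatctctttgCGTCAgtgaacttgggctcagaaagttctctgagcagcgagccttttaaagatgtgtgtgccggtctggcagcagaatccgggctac

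Kcnd2 and Kcnip2 carried a GC box, Kcnip2 and the printed window of Kcnip4 a CCAAT box, and Kcnj8 the cyclic AMP response motif. The other window of Kcnip4 held none of these motifs. A GC box was present in 7 of 14 windows of genes that fell and in 6 of 19 of genes that rose. It was present in 38 of 85 windows of all kept channel genes and in 32.7% of 32851 windows of all genes in the table. For the CCAAT box the counts were 5 of 14, 6 of 19, 23 of 85 and 33.8%. For the cyclic AMP response motif they were 1 of 14, 3 of 19, 12 of 85 and 17.8%. The windows cover 20 of the 28 called genes, some with more than 1 start. Entries for Kcnj11, Abcc8, Kcnq1 and Kcna1 were not used here. These matches are letters in a window, not measured binding.

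The other 13 voltage-gated pores did not pass the test, with differences from -2.08 to 0.46. The largest uncalled difference was that of Kcnf1, a silent subunit that modifies other voltage-gated pores. Its NZO levels of -2.01, -3.60 and -1.06 lay below the B6-ob/ob levels of -0.88, -0.18 and 0.64, at a difference of -2.08 with a wide error (SE 0.70, adjusted p = 0.0834). Kcnc4, a fast Kv3 pore, was well above background on 3 B6-ob/ob arrays and on 0 NZO arrays. Its bound was at least 1.77-fold lower in NZO, and the fit did not pass the test (-1.49, SE 0.50, adjusted p = 0.0839).

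Potassium channels opened by calcium or sodium, which shape bursts of action potentials, gave 1 call among 10 genes (22.2% of all genes). Kcnn2, a small-conductance calcium-activated pore, fell by 1.04 (SE 0.28, adjusted p = 0.0454). Its levels were -2.57, -2.32 and -1.94 in NZO and -1.71, -1.23 and -0.76 in B6-ob/ob. The call was lost without NZO 10, 11 or 12 or B6-ob/ob 5 or 6 (differences from -1.21 to -0.80). It was also lost under normexp (-0.62) and with no filter on dim probes. In this family 8 of 10 genes did not overlap between strains, the share above (41.1% of all genes) being the background. The large-conductance pore Kcnma1 was lower by -0.42 (SE 0.14, adjusted p = 0.077) and the intermediate-conductance pore Kcnn4 higher by 0.66 (SE 0.22, adjusted p = 0.0812), neither called. The sodium-activated pore Kcnt1 had differences of 1.35 and 1.32 on its 2 probes (adjusted p = 0.0568 for the brighter, with every probe tested apart), with no call. With the slide as a fixed block Kcnt1 passed the test (1.65, adjusted p = 0.0088), and so did Kcnn1 (0.71, adjusted p = 0.0411).

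Among 8 two-pore-domain genes, whose channels carry the resting potassium current, 2 rose and 1 fell (37.5%, against 22.2% of all genes), all by less than a doubling. Kcnk6 rose by 0.61 (SE 0.14, adjusted p = 0.0252), Kcnk5 by 0.58 (SE 0.15, adjusted p = 0.042) and Kcnk12 fell by 0.47 (SE 0.13, adjusted p = 0.0428). Kcnk5, a pore opened by alkaline pH, had levels of -1.30, -1.40 and -1.77 in NZO and of -2.05, -2.03 and -2.12 in B6-ob/ob, and its second probe differed by 0.17 (SE 0.35) with no call. These 3 calls rested on few arrays: Kcnk12 was lost without any one of the 6 (-0.52 to -0.38), Kcnk6 without any but B6-ob/ob 4 (0.51 to 0.66) and Kcnk5 without any but NZO 12 (0.48 to 0.60). Kcnk6 and Kcnk12 were also lost with the slide as a fixed block (0.51 and -0.38), and all 3 with no filter on dim probes. Kcnk6 was lost under normexp as well. Kcnk5 was lost with quantile normalisation, with scaling to the median of each array and with the mean of its probes. Kcnk16, the two-pore channel TALK-1 of islets, had levels of 3.22, 2.81 and 3.10 in NZO and of 3.04, 2.98 and 2.55 in B6-ob/ob, which overlapped (0.19, SE 0.19, 95% interval -0.27 to 0.64).

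Of 5 calcium channel pores kept 1 rose, or 20%, near the 22.2% of all genes called in either direction. Cacna1g, a T-type pore that opens at low voltage, had levels of -3.08, -3.56 and -3.59 in NZO and of -4.83, -4.77 and -4.98 in B6-ob/ob. It rose by 1.45 (SE 0.17, adjusted p = 0.0026) and passed in all 17 alternatives, with differences from 0.55 (normexp) to 1.54. Cacna1d, an L-type pore of the beta cell, had levels of -0.07, 0.08 and 0.27 in NZO and of -0.52, -0.19 and -0.05 in B6-ob/ob. The strains overlapped, and the difference of 0.35 (SE 0.17) did not pass the test (adjusted p = 0.197). Its other 2 probes gave 0.16 and -0.45, neither called. Cacna1a, Cacna1b and Cacna1h had differences from -0.32 to 0.29 with no call.

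The accessory subunits of calcium channels gave 1 call in each direction among 8 genes, or 25%, near the 22.2% of all genes. Cacnb3, a cytoplasmic beta subunit, rose by 0.68 (SE 0.17, adjusted p = 0.0325), from 1.63, 1.92 and 1.98 in B6-ob/ob to 2.65, 2.66 and 2.26 in NZO. Cacna2d3, an extracellular alpha2-delta subunit that helps pores reach the membrane, fell by 1.47 (SE 0.18, adjusted p = 0.0027), from -3.64, -3.03 and -3.33 to -4.88, -4.75 and -4.78. Cacnb3 lost its call without NZO 10, NZO 11, B6-ob/ob 4 or B6-ob/ob 5 (0.58 to 0.72). It also lost it with scaling to the median of each array and with no filter on dim probes. Cacna2d3 lost its call under normexp only (-0.36). The other 6 genes had differences from -0.87 (Cacng4) to -0.05 (Cacnb1), none called.

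All 4 members of the RGK family, small GTP-binding proteins that bind calcium channel beta subunits and inhibit the channel, rose in NZO. Rrad had levels of 0.58, 0.87 and 0.41 in NZO and of -0.87, -2.21 and -1.96 in B6-ob/ob, a difference of 2.30 (SE 0.36, adjusted p = 0.007). Gem had levels of 1.84, 1.99 and 2.41 in NZO and of 0.61, 0.97 and 1.204 in B6-ob/ob, a difference of 1.15 (SE 0.22, adjusted p = 0.0136). Rem2 rose by 0.78 (SE 0.21, adjusted p = 0.042). Rem1 rose by 2.30 (SE 0.59, adjusted p = 0.0374) and was well above background on 3 NZO arrays and 1 B6-ob/ob array. No strain overlapped the other for any of the 4. Their results with other settings or with 1 array left out are not given here. They belong to a list of 21 channel regulators, of which 19 were kept, 6 rose and 1 fell, a share of 36.8% against 22.2% of all genes. The other called members were Camk2d (0.77), a calcium-dependent kinase, Akap7 (0.52), which anchors protein kinase A at channels, and Dpp10, while the 3 calmodulin genes did not pass.

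Sodium channels carry the fast upstroke of the action potential. They gave 1 call among 4 pores (25%) and 1 among 3 accessory subunits (33.3%), against 22.2% of all genes. Scn2b, the beta2 subunit that binds a sodium pore covalently, had levels of -0.79, -0.89 and -0.91 in NZO and of -3.49, -3.28 and -3.76 in B6-ob/ob. The SD was 0.06 in NZO and 0.24 in B6-ob/ob (n = 3 each). Scn2b rose by 2.65 (SE 0.15, 95% interval 2.28 to 3.01, adjusted p = 0.00024), or 6.26-fold. It had the smallest adjusted p of the 82 genes and passed in all 17 alternatives (1.59 to 2.76). Scn1a, a pore, fell by 0.81 (SE 0.19, adjusted p = 0.0296), from -2.69, -2.51 and -2.64 in B6-ob/ob to -3.36, -3.10 and -3.79 in NZO. Its call was lost without NZO 10 or without any 1 of the B6-ob/ob arrays (-0.84 to -0.76). It was also lost with the slide as a fixed block (-0.59), under normexp (-0.33) and with no filter on dim probes. Scn3a (-0.72), Scn4a (-0.40) and Scn8a (0.11) were not called, and neither was Scn3b (0.59, adjusted p = 0.0674).

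Of 3 pacemaker (HCN) channel genes, whose pores open on hyperpolarisation, Hcn4 fell (33.3% called, against 22.2% of all genes). Its levels were -3.96, -3.83 and -3.54 in NZO and -2.86, -3.04 and -2.69 in B6-ob/ob, a difference of -0.91 (SE 0.16, adjusted p = 0.0101) that shrank to -0.30 with no call under normexp. Hcn2 and Hcn3 had differences of 0.09 and -0.14 with no call. The dimmer probe of Hcn3 gave 1.37 (SE 0.33, adjusted p = 0.0294), so that the probes of this gene disagreed in sign.

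Trpm5, a calcium-activated cation channel of islet and taste cells, varied more among the B6-ob/ob arrays than between the strains. Its levels were 0.21, -0.06 and 1.57 in NZO and -1.61, 0.56 and 2.59 in B6-ob/ob, and the difference was 0.06 with an SE of 1.06 (95% interval -2.50 to 2.63). Of the 9 beta cell markers 6 took the same order in that strain (Pdx1, Nkx6-1, Mafa, Slc2a2, Slc30a8 and Ucn3), among them Slc2a2 (2.19, 3.51 and 4.78 in B6-ob/ob 4, 5 and 6) and Ucn3 (3.28, 3.89 and 4.36). Ins2 (10.52, 10.06 and 9.996) took the opposite order, and Ins1 and G6pc2 took neither. The dividing cell mean took the opposite order. Over these 3 arrays 28% of all genes take the order of Trpm5 and 33.6% the opposite one. The beta cell list as a whole had a mean level of 4.66, 5.01 and 5.50 on these arrays and of 4.84, 4.67 and 5.05 in NZO, and its summed level lay between 11.2 and 11.5 in B6-ob/ob and between 11.3 and 11.5 in NZO. All 9 kept markers of it were well above background on all 6 arrays. Kcnj11 took that order among the B6-ob/ob arrays too. The part of beta cell content or state in these values was not tested.

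**Figure D3:**
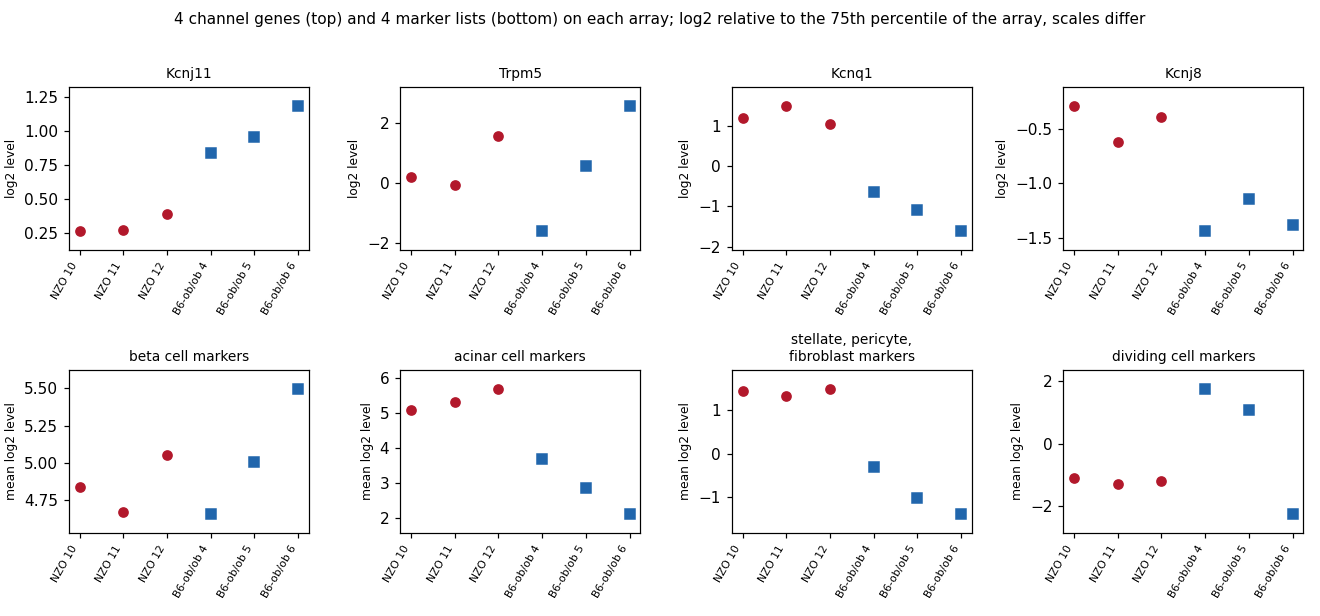
Level of 4 channel genes (top) and mean level of 4 marker lists (bottom) on each of the 6 arrays, in log2 relative to the 75th percentile, each on its own scale. In B6-ob/ob, Kcnj11 and Trpm5 follow the order of the beta cell mean (4.66, 5.01 and 5.50) and Kcnq1 that of the acinar mean (3.69, 2.84 and 2.10), while Kcnj8 follows neither. Of all genes 28% have the first order and 33.6% the second. The myeloid mean (not drawn) also has the first order, and the duct and endothelial means (not drawn) have the second.

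Several channel genes were read by more than 1 probe, which gave a check within each array. Of 23 such genes 16 had differences of 1 sign on all kept probes and 7 had both signs, among them Abcc8, Cacna1d, Hcn3, Kcnh1, Scn3b and Scn8a. For 6 genes some but not all probes passed the test: Abcc8, Hcn3, Kcnc2, Kcnip3, Kcnj8 and Kcnk5. Kcnh1 gave -0.20 on its brighter probe and 0.52 on its dimmer one, neither called. Scn3b gave 0.59, -0.19 and 1.03 on 3 probes and Scn8a 0.11 and -0.28 on 2, again with no call.

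**Figure D4:**
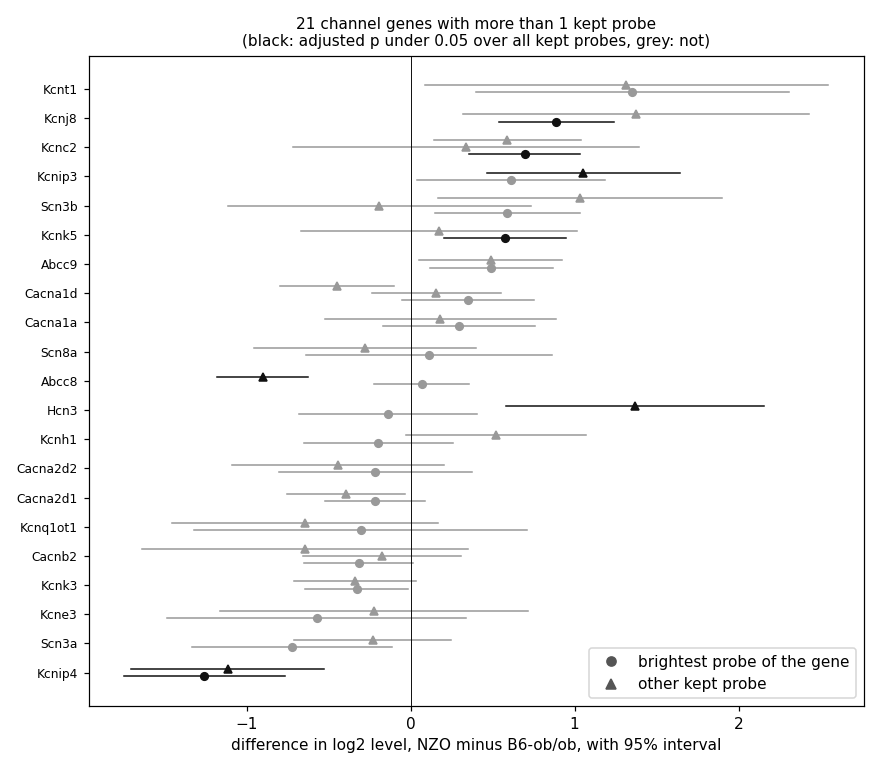
Difference in log2 level (NZO minus B6-ob/ob) with its 95% interval for every kept probe of 21 of the 23 channel genes with more than 1, circles for the brightest probe and triangles for the others, black where the probe passed the test. Abcc8 and Hcn3 each have a called dimmer probe that lies away from an uncalled brighter one, and both probes of Kcnip4 are called on the same side.

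Other ion transport genes were read from 2 further lists. Of 29 membrane channels outside the named families 25 were kept, of which 7 rose and 2 fell, or 36% (22.2% of all genes), with a median difference of 0.19. Those that rose were the epithelial chloride channel Cftr (2.33, at least 2.64-fold higher by the bound), the epithelial sodium channel subunit Scnn1a (2.08), the calcium-activated chloride channel Ano1 (2.07), the cation channels Trpv4 (1.84), Trpm2 (1.61) and Trpv2 (0.79), and the ATP-gated channel P2rx7 (1.15). Ano1 had levels of 0.15, 0.00 and 0.13 in NZO and of -2.13, -2.004 and -1.79 in B6-ob/ob. Among those that fell was the endolysosomal channel Tpcn2, by 1.31 (SE 0.20, adjusted p = 0.0061). Cftr was kept only through the NZO arrays, where it is high, so that the count of 7 depends in part on the filter. It also stands in the duct marker list above.

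Of 26 pumps, exchangers and calcium store genes 23 were kept, of which 3 rose and 3 fell, or 26.1%, near the share of all genes. The chloride importer Slc12a2 (1.26), the store-operated calcium channel Orai2 (1.204) and the sodium-calcium exchanger Slc24a6 (1.02) rose. Orai3 (-0.40) and the endoplasmic reticulum calcium pump Atp2a3 (-0.49) fell, as did Fxyd3, a modulator of the sodium pump. Fxyd3 was well above background on 3 B6-ob/ob arrays and on 0 NZO arrays. It was kept only through the B6-ob/ob arrays, where it is high, so that its call depends in part on the filter. Its bound was at least 4.26-fold lower in NZO, with a fitted difference of -3.48 (SE 0.23, adjusted p = 0.00042). Over the 3 lists 22 of 67 genes passed, where 22.2% of all genes did. The count was 12 without B6-ob/ob 5, 14 without NZO 10 and 14 without NZO 11, fits for which the share of all genes is not given here.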

How the data were processed

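Intensities are linear and come from the deposited scanner files. The software was Feature Extraction, version 10.5.1.1 by the headers of these files and 9.1 by the submitters' processing notes. It subtracted the background, and arrays were not scaled to each other, per the file headers. The authors' own table of intensities served only for a count without direction. Control spots were left out, 61 to 76 flagged spots per array were set missing, spots of a probe were averaged, and the log2 was lowered by each array's 75th percentile. No pseudocount was added. A probe was kept if 3 or more of the 6 arrays called it well above background, and a gene was read from its brightest kept probe. The test was limma's (version 3.58.1, R 4.3.3; lmFit, eBayes, two-sided). Its p-values were adjusted by Benjamini and Hochberg's method across 16418 genes, and 0.05 was the threshold. The fit was tested on simulated data. An exact permutation test of 3 against 3 arrays cannot go below 0.1. Of the 82 genes 75 were named through RefSeq accessions and 7 kept the files' name.

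Members and lists were chosen with earlier results of these data known. Named genes are 10 fixed channel genes, the called genes (at most 15 per direction by size), genes dim in 1 strain only, and genes whose probes differ in sign or call. Genes of the lists that passed and genes named as comparisons were added after their values were seen. A few genes are counted but not reported here by name.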

Additional observations from a re-analysis of the deposited data

How the results depend on the processing

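Over the 16 or 17 alternatives tried per gene none of the 28 called channel genes changed sign, 7 kept their call in all of them (Kcnq1, Scn2b, Kcna1, Kcna6, Kcne4, Cacna1g and Kcnab1) and 12 kept it whichever array was left out. Counts of channel genes moved more: 16 rose, but 25 with array weights and between 8 and 15 with 1 array left out, and 12 fell, but 4 with the normexp background, 7 with no filter on dim probes, 5 with the slide as a fixed block, 28 with array weights and between 4 and 10 with 1 array left out. In either direction 28 passed, 16 with normexp, 53 with array weights and between 12 and 25 with 1 array left out. The deposited value table gave 23 calls among 77 channel genes, 22 of them shared. Of the listed genes outside the families 22 passed, 38 with array weights and between 12 and 21 with 1 array left out. The share that rose among called channel genes was 57.1%, where 59.4% of all called genes rose. With normexp it was 75% (65.3% of all called genes) and with the slide block 75% (65%). With no filter it was 68.2% (64.2%), with the median of each array 50% (52.5%) and with array weights 47.2% (49.9%). Kcnj11 lost its call with the slide as a fixed block (-0.70) and ranged from -0.76 to -0.59 with 1 array left out.

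Signs changed in genes near 0. Abcc8 was -0.008 with normexp, -0.01 with the median of each array, -0.11 with quantile normalisation and -0.42 with the mean of its probes. Trpm5 was -0.09 with normexp, -0.014 with the median, -0.15 with the slide block, -0.24 with array weights, and from -1 to 1.101 with 1 array left out (-0.44 without NZO 12, -1 without B6-ob/ob 4). With the mean of their probes Kcnh1 was 0.16, Hcn3 0.62 and Scn8a -0.082. With array weights Kcnh1 was 0.007 and Scn8a -0.051. With 1 array left out Hcn3 ran from -0.339 to 0.072 (without B6-ob/ob 6) and Scn8a from -0.143 (without B6-ob/ob 4) to 0.344, at -0.06 without NZO 12. For Abcc8, Kcnh1, Hcn3 and Scn8a the probes of a gene differed in sign. The cause of the other changes was not tested.

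The replicate numbers gave no pairing of arrays, because the labels number the NZO arrays 10 to 12 and the B6-ob/ob arrays 4 to 6. The slide, which holds arrays of both strains in 2 cases, was used as a block instead. Of the 82 genes 13 were not well above background on all 6 arrays, and among the others 13 rose and 9 fell.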
